A study of Danio rerio with 12 samples.

Results

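Normal zebrafish development between 22 and 30 hours post fertilization (hpf) was followed in embryos that form blood normally, to describe which tissues' genes rose and which fell over 8 h. The comparison used 6 of the 12 libraries of the series, chosen by their labels alone: the 3 sibling libraries at 30 hpf, from clutches 3, 4 and 9, against the 3 sibling libraries at 22 hpf, from clutches 9, 11 and 13. The siblings are labelled wild-type/het and are the clutch mates of moonshine (mon) embryos, which carry a mutation of trim33 and make no red blood cells, so a sibling pool may hold carriers of the mutation. The other 6 libraries of the series are mon embryos of the same clutches and stages. Every library was total RNA of 30 whole, untreated embryos of 1 clutch, and each clutch was the offspring of a single pair of fish. All embryos, siblings and mon alike, inherited a drl:EGFP transgene from 1 parent, a green reporter of the drl gene, and siblings were set apart from mon by its signal before the first collection. Clutch 9 is the only clutch sampled at both stages, so stage and clutch are otherwise different.

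In the zebrafish tailbud, the presomitic mesoderm is cut into somites under the control of the segmentation clock, a set of her genes whose expression oscillates, and each somite then gives rise mainly to muscle. The stages compared lie on either side of the end of this process. In the hours that follow, the embryo begins to swim, pigment and the fin folds appear, the heart drives the circulation of primitive red blood cells, and the first axon tracts and the lens mature.

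The sibling libraries held 18720754 to 23067968 counts and 26261 to 26843 genes with at least 1 count, with 3.88 to 4.97% of the reads in the single top gene. All 28 marker genes of the parts of an embryo (muscle, heart, vessel, blood, nervous system, lens, kidney, skin, yolk, germ cells, hatching gland and pigment) had counts in all 6 libraries. Of 21778 genes tested, 9391 (43.1%) differed between the stages at an adjusted p under 0.05 in edgeR's quasi-likelihood test, which is what "passed" means throughout; 4873 (22.4%) rose and 4518 (20.7%) fell. The rises were larger than the falls: 2781 genes (12.8%) rose at least 2-fold and 922 (4.23%) fell at least 2-fold, and at a change of at least 4-fold there were 1117 and 164. The median change of all genes was -0.02 on the log2 scale. The shares of all genes, 22.4% that rose and 20.7% that fell, are the background for every list count below. The filter on low counts kept 1117 genes through the 30 hpf libraries alone and 659 through the 22 hpf libraries alone, which limits the direction they can take. Of the 19677 that passed it at each stage, 4229 rose and 4388 fell. Values are counts per 1000000 counts of a library (CPM) in single libraries, always in the order of clutches 9, 11 and 13 at 22 hpf and clutches 3, 4 and 9 at 30 hpf, and changes are log2 differences, 30 minus 22 hpf, with their standard error (SE). In bulk samples more cells of a type and more RNA per cell cannot be told apart, and this holds for every tissue below.

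The genes of the presomitic mesoderm and of the segmentation clock formed the list that fell furthest, with 24 of 35 tested members lower (20.7% of all genes), 6 higher and a median change of -1.58. The filter on low counts kept 7 of the 35 through the 22 hpf libraries alone, so these could only fall; of the 28 that passed it at each stage, 17 were lower and 6 higher, with a median of -0.98. The T-box factor tbx6, which specifies presomitic mesoderm, stood at 71.1, 84.0 and 80.6 CPM at 22 hpf and 1.87, 2.06 and 2.17 CPM at 30 hpf (log2 change -5.27 ± 0.11 SE, adjusted p = 2.65e-15). For msgn1, a regulator of the exit of progenitors into that tissue, the levels were 33.4, 35.9 and 24.7 CPM at 22 hpf and 0.934, 0.852 and 1.21 CPM at 30 hpf (log2 change -4.97 ± 0.22 SE, adjusted p = 1.98e-11). The clock gene her1 was counted at 14.0, 10.8 and 18.1 CPM at 22 hpf and 0.445, 0.251 and 0.806 CPM at 30 hpf (log2 change -4.83 ± 0.32 SE, adjusted p = 6.55e-09). All 3 genes were far lower in each library at 30 hpf than in any at 22 hpf, and the groups did not overlap. Other members of the list fell as well: her7 (-6.21, -4.52 with clutch as a block and -7.09 without clutch 9 at 30 hpf), the T-box gene tbx16 (-4.37), the caudal factor cdx4 (-3.88), the boundary genes mespbb (-2.94), ripply1 (-2.23) and ripply2 (-3.66), and the signals fgf17 (-1.58) and wnt3a (-0.77). The 6 members that rose, her12, her15.1, lfng, NRARP (ENSDARG00000018958) and both copies of HES6, belong to or act with the Notch pathway, and the largest of their changes was that of HES6 (ENSDARG00000007097), 1.23. The protocadherin pcdh8, known in the mouse as a gene of the paraxial mesoderm, was among the 10 genes with the largest falls at 47.9, 47.9 and 53.6 CPM at 22 hpf and 2.27, 2.66 and 2.82 CPM at 30 hpf (log2 change -4.27 ± 0.24 SE, adjusted p = 2.62e-08).

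Targets of signals that act in the tailbud fell in part. Of the feedback targets of Fgf signalling, 9 of 13 fell, among them etv5b (-1.13), spry1 (-1.09) and spry4 (-0.89), and 1 rose, spred3 (1.21). The list took 0.0766 ± 0.0053% of a library at 22 hpf and 0.0517 ± 0.0005% at 30 hpf (mean ± SD, n = 3). In the list for retinoic acid 8 of 15 members fell, with the retinol dehydrogenase RDH10 (ENSDARG00000012369) at -1.22 and the retinaldehyde dehydrogenase aldh1a2, which makes retinoic acid in the somites, at -0.46. The 2 members that rose were CRABP1 (ENSDARG00000035904) (1.48) and cyp26b1 (0.26). Of 9 Wnt targets 4 fell and none rose, with tcf7 (-1.29) and SP5 (ENSDARG00000076571) (-0.95) ahead of nkd1 (-0.22) and znrf3 (-0.26), and axin2 did not pass (-0.05). The call of nkd1 was lost without clutch 9 at either stage or clutch 4, and that of znrf3 without clutch 11 or 13 at 22 hpf or clutch 3 or 9 at 30 hpf. The call of znrf3 was also lost with DESeq2, with limma-voom, in a fit of the 6 sibling libraries alone and with clutch as a block (-0.13). Of 7 Hedgehog targets 2 fell (20.7% of all genes), among them gli1, a transcription factor of the pathway (-0.99), and 3 rose (22.4% of all genes). Of 48 tested hox genes, which pattern the body axis, 20 fell (20.7% of all genes) and 3 rose (22.4%), and hoxa9a changed by -0.84 ± 0.13. HOXB13 (ENSDARG00000056015), of the tail end of the axis, changed by 3.46 (4.64 with clutch as a block). It was at 0.102, 0.299 and 0.154 CPM at 22 hpf and 1.96, 2.01 and 2.37 CPM at 30 hpf. The filter on low counts kept it through the 30 hpf libraries alone, so it could only rise. Of its relatives, hoxa13b fell (-0.74), and hoxa13a, hoxd13a and both copies of HOXC13 did not pass. With clutch as a block the hox counts were 10 and 6.

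Skeletal muscle gained more of the libraries than any other of the 50 lists. The sarcomere and excitation-contraction genes took 1.74 ± 0.18% of a library at 22 hpf and 8.25 ± 0.62% at 30 hpf, and 58 of 65 tested members rose (22.4% of all genes), 53 of them at least 2-fold, with a median change of 2.82. The filter on low counts kept 6 of the 65 through the 30 hpf libraries alone, so these could only rise. Of the 59 that passed it at each stage, 53 rose and 1 fell, with a median of 2.58. The 2 copies of TTN, the giant elastic protein of the sarcomere, made up a large part of the list at 30 hpf; together they took 1.09, 0.880 and 0.970% of the libraries at 22 hpf and 2.96, 4.00 and 3.92% at 30 hpf, and the list without them rose 6.09-fold. The fast troponin T gene TNNT3 (ENSDARG00000068457) had the smallest p of the list, at 11.4, 10.7 and 11.4 CPM at 22 hpf and 416, 428 and 410.0 CPM at 30 hpf (log2 change 5.22 ± 0.07 SE, adjusted p = 5.64e-18). The actin gene ACTA1 (ENSDARG00000055618) was at 179, 169 and 169 CPM at 22 hpf and 952, 929 and 853 CPM at 30 hpf (log2 change 2.4 ± 0.06 SE, adjusted p = 8.61e-15). Within each of these genes the 3 libraries of a stage lay close together and the stages did not overlap.

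Genes of fast fibres and of calcium handling were among the muscle genes with the highest folds. The parvalbumin pvalb1, a calcium buffer of fast muscle, was at 0.713, 0.448 and 0.719 CPM at 22 hpf and 356, 394 and 389 CPM at 30 hpf (log2 change 9.23 ± 0.17 SE, adjusted p = 3.18e-14). Creatine kinase ckma, which regenerates ATP, was at 159, 130.2 and 113 CPM at 22 hpf and 1893, 1965 and 1903 CPM at 30 hpf (log2 change 3.84 ± 0.17 SE, adjusted p = 1.11e-07). At 22 hpf pvalb1 was low and ckma already abundant, and both were higher in every 30 hpf library than in any at 22 hpf. The calcium pump atp2a1 (3.16), the calsequestrin CASQ1 (ENSDARG00000038716) (6.65), the voltage sensor CACNA1S (ENSDARG00000029457) (5.08) and both copies of the fast light chain MYL11 (ENSDARG00000053254 at 3.55 and ENSDARG00000002589 at 6.05) rose too, as did fast troponin I, TNNI2 (ENSDARG00000029069) (8.01). The alpha-actin gene actc1b, already one of the most abundant muscle messages at 22 hpf, rose by 2.58. Against the list, unc45b, a chaperone of myosin folding, fell (-0.26). The fast myosins myhz1.1, myhz1.2 and myhz2 are near-identical copies between which the counting may share reads, so their single values are uncertain.

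**Figure D1:**
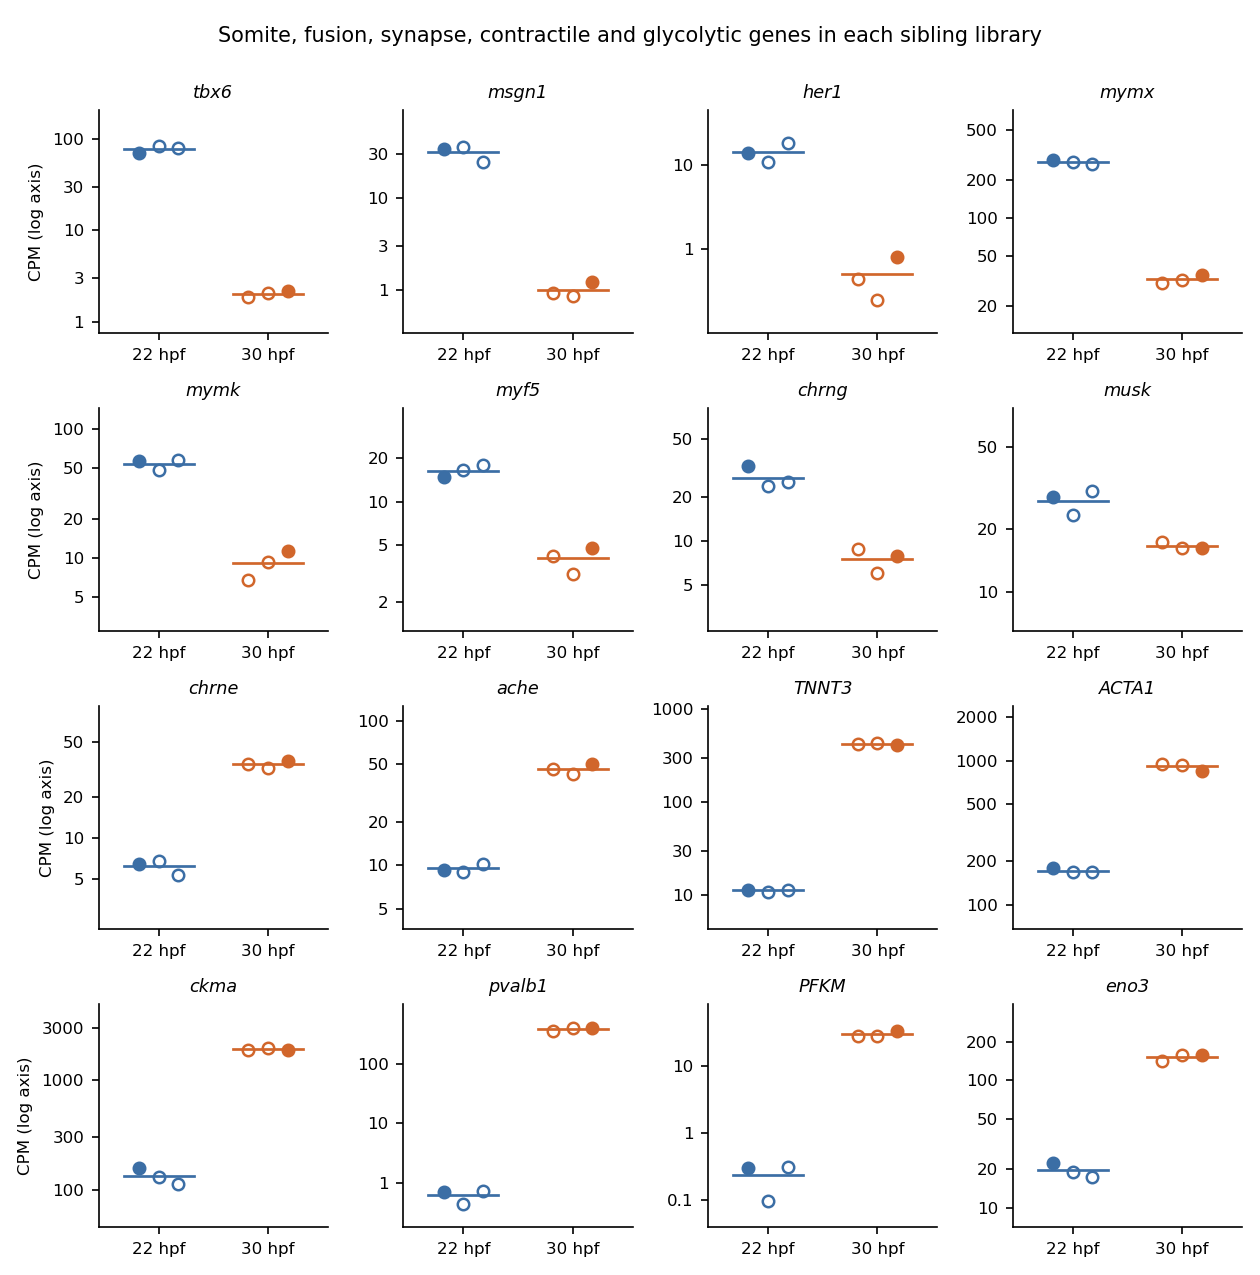
CPM on a log axis in each sibling library for 16 genes of the somites and muscle, with blue points at 22 hpf, orange points at 30 hpf, filled points for clutch 9 and a bar at the mean of 3 libraries. The first 8 panels fall and the last 8 rise, and in each the 22 and 30 hpf libraries are separate, as for chrng and chrne.

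Genes of muscle cell fusion and early myogenic factors fell, within a list that was divided. Among myogenic regulators and fusion genes, 9 of 23 fell and 11 rose. The micropeptide gene mymx (myomixer), needed for the merging of muscle precursors, stood at 287, 278 and 266 CPM at 22 hpf and 30.7, 32.2 and 35.2 CPM at 30 hpf (log2 change -3.08 ± 0.10 SE, adjusted p = 9.57e-13), and its partner mymk (myomaker) at 56.0, 47.7 and 57.6 CPM at 22 hpf and 6.85, 9.42 and 11.4 CPM at 30 hpf (log2 change -2.55 ± 0.16 SE, adjusted p = 7.91e-09). Both were several times lower in every 30 hpf library than in any at 22 hpf. The adhesion receptor jam2a, also needed for fusion in zebrafish, fell (-2.14), as did the determination factor myf5 (-2.02), the somite factor meox1 (-1.45), mef2d (-1.18) and, less, myod1 (-0.50). The late myogenic factor myf6 (1.26) and the sarcomere methyltransferase SMYD1 (ENSDARG00000009280) (3.36) rose.

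At the neuromuscular synapse the genes of 2 acetylcholine receptor subunits moved in opposite directions. The gamma subunit gene chrng, of the embryonic receptor, was at 32.8, 23.9 and 25.4 CPM at 22 hpf and 8.81, 6.02 and 7.86 CPM at 30 hpf (log2 change -1.85 ± 0.14 SE, adjusted p = 1.67e-08). The epsilon subunit gene chrne, of the mature receptor, was at 6.46, 6.72 and 5.34 CPM at 22 hpf and 35, 32.3 and 36.9 CPM at 30 hpf (log2 change 2.49 ± 0.12 SE, adjusted p = 2.79e-11). The level of chrng was higher in every 22 hpf library than in any at 30 hpf, and that of chrne was lower. Acetylcholinesterase ache rose (2.28), as did rapsn (0.78), which clusters receptors, chrna1 (0.73) and both copies of CHRNB1. The scarcer copy (ENSDARG00000022532) changed by 1.99 and the more abundant one (ENSDARG00000069660) by 0.97. The kinase gene musk fell (-0.72), and so did its adaptor dok7a (-1.87), but the more abundant adaptor copy DOK7 (ENSDARG00000060236) did not pass (-0.08).

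Energy metabolism genes rose, with the muscle forms of the enzymes in front. Of 29 glycolytic genes 22 rose and 2 fell, with a median of 1.8, and the share of the list went from 0.138 ± 0.008% to 0.278 ± 0.009%. The filter on low counts kept 3 of the 29 through the 30 hpf libraries alone, so these could only rise. Of the 26 that passed it at each stage, 19 rose and 2 fell, with a median of 1.59. The muscle phosphofructokinase PFKM (ENSDARG00000060797) was at 0.305, 0.0995 and 0.308 CPM at 22 hpf and 27.2, 27.4 and 32.3 CPM at 30 hpf (log2 change 6.90 ± 0.22 SE, adjusted p = 2.42e-13). Beta-enolase eno3, the muscle enolase, was at 22.5, 19.0 and 17.4 CPM at 22 hpf and 142, 157 and 158 CPM at 30 hpf (log2 change 2.95 ± 0.12 SE, adjusted p = 1.19e-10). Both were higher in all 30 hpf libraries, and the fold of PFKM (ENSDARG00000060797) rests on small counts at 22 hpf. The muscle phosphoglycerate mutase pgam2 (3.59), PKM (ENSDARG00000099730) (1.43), ldha (1.90) and gapdh (1.52) rose, and the hexokinases hk1 (-0.29) and hk2 (-0.62), which start the pathway, were the 2 that fell. Genes of the respiratory chain moved less: 45 of 82 nuclear ones rose with a median of 0.30, and 10 of 13 protein genes of the mitochondrial genome rose with a median of 0.39. Exceptions in size were cox6b1 (2.64) and ndufa4b (2.11). The ADP/ATP carrier slc25a4, among the 10 largest rises of all genes, was at 0.458, 0.398 and 0.205 CPM at 22 hpf and 69.3, 79.2 and 66.0 CPM at 30 hpf (log2 change 7.63 ± 0.19 SE, adjusted p = 1.07e-14). Its fold, too, rests on small counts at 22 hpf.

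In the heart list 10 of 31 tested members rose (22.4% of all genes) and 5 fell (20.7%), with a median of 0.20. The filter on low counts kept 2 of the 31 through the 30 hpf libraries alone, so these could only rise. Of the 29 that passed it at each stage, 9 rose and 5 fell, with a median of -0.03. The ventricular myosin myh7 was at 0.713, 1.74 and 0.667 CPM at 22 hpf and 12.9, 17.0 and 12.7 CPM at 30 hpf (log2 change 3.76 ± 0.27 SE, adjusted p = 7.66e-09); without clutch 11 at 22 hpf its change was 4.35. The atrial myosin myh6 was at 3.46, 3.23 and 3.13 CPM at 22 hpf and 23.7, 21.4 and 19.8 CPM at 30 hpf (log2 change 2.72 ± 0.13 SE, adjusted p = 2.17e-11). The stages did not overlap for either. The light chain myl7 (1.45), popdc2 (1.77) and mybpc3 (3.1) rose, whereas has2, which makes the hyaluronan of the cardiac jelly, fell (-2.76). The early cardiac factor nkx2.7 fell (-1.34), and gata4 (-0.14) did not pass. Without clutch 13 at 22 hpf 3 heart genes rather than 5 were lower. Some of these genes are also expressed outside the heart.

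Vessel genes moved in both directions, with 14 of 39 higher and 13 lower. The factor etsrp, which starts the endothelial programme, fell (-1.26 ± 0.21), with the VEGF receptor kdr (-1.34), the phosphatase dusp5 (-1.14) and egfl7 (-0.96). The scavenger receptor stab1 was at 15.3, 13.6 and 12 CPM at 22 hpf and 44.4, 45.6 and 40.0 CPM at 30 hpf (log2 change 1.67 ± 0.10 SE, adjusted p = 7.47e-10), and stab2 (1.03), the mannose receptor MRC1 (ENSDARG00000102100) (2.33) and plvapb (1.64) rose too. The venous receptor ephb4a fell (-0.66), and flt4, a receptor of veins and lymphatic vessels, did not pass (0.06, adjusted p = 0.695). The arterial genes EFNB2 (ENSDARG00000020164 at -0.51 and ENSDARG00000074050 at -0.72) and hey2 (-0.51) fell, and dll4 did not pass (0.01). Among other vessel genes lyve1b (2.29) and pecam1a (2.47) rose. The pan-endothelial genes kdrl (0.28) and cdh5 (0.31) rose a little, and with clutch as a block kdrl did not pass (adjusted p = 0.214).

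Embryonic globins, the oxygen carriers of red cells, rose in 9 of 11 tested genes, and their share of a library went from 0.0351 ± 0.0034% to 0.273 ± 0.004%, a 7.76-fold rise. The alpha-type globin hbae3 stood at 128, 106 and 104 CPM at 22 hpf and 833, 797 and 857 CPM at 30 hpf (log2 change 2.88 ± 0.16 SE, adjusted p = 2.49e-07), and the beta-type globin hbbe3 at 77.7, 79.0 and 80.7 CPM at 22 hpf and 494, 354 and 388 CPM at 30 hpf (log2 change 2.38 ± 0.15 SE, adjusted p = 1.43e-07). All libraries at 30 hpf were above all at 22 hpf. Globin copies are close in sequence, so reads may be split between them. Of 30 other erythroid genes 17 rose, against 22.4% of all genes, and 5 fell, against 20.7%. The ammonium channel rhag (3.83), spectrin sptb (2.4), the erythroid factor klf1 (2.27), hemgn (2.2) and the haem synthesis enzyme alas2 (1.65) rose. The early factors lmo2 (-1.39), tal1 (-1.05) and klf17 (-0.73) fell, the last also a gene of the hatching gland and listed there. For gata1a, the master regulator of red cells, the change did not pass (log2 change 0.45 ± 0.26 SE, adjusted p = 0.170) except in a fit of the 6 sibling libraries alone (adjusted p = 0.0358), and the reporter's gene drl also did not (0.13, adjusted p = 0.649). With clutch as a block 3 rather than 5 erythroid genes fell.

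Granulocyte and macrophage genes rose in 7 of 21 cases and fell in 4, the last close to the share of all genes that fell. The filter on low counts kept 3 of the 21 through the 30 hpf libraries alone, so these could only rise. Of the 17 that passed it at each stage, 5 rose and 3 fell. The list took 0.0223 ± 0.0023% of a library at 22 hpf and less at 30 hpf, 0.0166 ± 0.0019%, without overlap; its most abundant member ctss2.1, a cathepsin, fell (-1.32), but did not pass without clutch 9 (adjusted p = 0.127). The lysozyme gene lyz was at 0.102, 0 and 0 CPM at 22 hpf and 0.979, 1.65 and 0.957 CPM at 30 hpf (log2 change 4.91 ± 0.77 SE, adjusted p = 5.28e-05) and was counted at 22 hpf in clutch 9 alone, so the size of its change rests on that library. The granulocyte protease npsn was at 0.611, 0.348 and 0.872 CPM at 22 hpf and 9.74, 14.9 and 9.82 CPM at 30 hpf (log2 change 4.23 ± 0.28 SE, adjusted p = 1.87e-09), and the macrophage receptor csf1ra changed by 2.75. Of the early factors of the lineage, SPI1 (ENSDARG00000000767) did not pass (-0.20) and cebpa fell (-0.48). With clutch as a block, and without clutch 9, the number of lower genes was 2 in place of 4. None of the 7 tested genes of hemogenic endothelium and blood stem cells passed, with edgeR, DESeq2 or limma-voom; at an unadjusted p under 0.05 edgeR had 0, and 2 rose in its fit with clutch as a block. Among them the stem cell factor runx1 was at 2.09, 1.79 and 2.72 CPM at 22 hpf and 1.47, 2.71 and 2.67 CPM at 30 hpf, and the libraries of the stages overlapped.

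Genes of neuronal differentiation rose, while neural progenitor genes had a median change near 0. Of 20 tested proneural genes and early neuron factors 19 rose with a median of 1.31, and of 43 genes of differentiated neurons 39 rose with a median of 1.64, against 22.4% of all genes. The filter on low counts kept 3 of the 20 proneural genes through the 30 hpf libraries alone, so these could only rise. Of the 17 that passed it at each stage, 16 rose, with a median of 1.19. The RNA-binding protein gene elavl3, an early neuronal marker, was at 203, 201 and 210.2 CPM at 22 hpf and 421, 398 and 452 CPM at 30 hpf (log2 change 1.05 ± 0.06 SE, adjusted p = 2.76e-10). Its relative elavl4 was at 21.1, 21.5 and 19.0 CPM at 22 hpf and 82.5, 86.1 and 83.0 CPM at 30 hpf (log2 change 2.03 ± 0.08 SE, adjusted p = 4.23e-12). The adhesion molecule l1cama, which guides axons, was at 4.17, 3.28 and 3.39 CPM at 22 hpf and 34.3, 38 and 38.2 CPM at 30 hpf (log2 change 3.35 ± 0.12 SE, adjusted p = 7.60e-13). Every library at 30 hpf exceeded every library at 22 hpf in these genes. The factors onecut1 (2.17) and nhlh2 (2.06), NEUROD6 (ENSDARG00000020794) (3.95), the synaptic genes vamp2 (1.98) and SNAP25 (ENSDARG00000020609) (1.96), and the neurofilament genes nefma (3.23) and nefmb (2.35) also rose.

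Transmitter genes rose in 17 of 20 cases, with a median of 1.77. The transmitter genes that rose covered inhibitory cells, with gad2 (2.35), GAD1 (ENSDARG00000027419) (2.97), the vesicle carrier slc32a1 (2.32) and the glycine transporter slc6a5 (2.12). They also covered excitatory cells, with the vesicular glutamate carriers SLC17A6 (ENSDARG00000041150 at 1.23 and ENSDARG00000001127 at 2.17). The monoamine vesicle carrier and the acetylcholine synthesis gene rose too, slc18a2 by 1.64 and CHAT (ENSDARG00000015854) by 1.89. Motor and sensory neuron genes rose in 14 of 22 cases, among them prph (1.27), the neurotrophin receptor NTRK3 (ENSDARG00000086214) (2.38) and lhx1a (2.23).

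Of 33 neural progenitor genes 11 rose, 8 fell and 14 did not pass, with a median of 0.03. The pluripotency and progenitor factor sox2 did not pass (-0.16 ± 0.11, adjusted p = 0.243), and sox19a (-0.46) and sox19b (-0.53) fell. The radial glia gene FABP7 (ENSDARG00000007697) was at 9.67, 7.91 and 7.13 CPM at 22 hpf and 42.6, 46.7 and 47.0 CPM at 30 hpf (log2 change 2.46 ± 0.14 SE, adjusted p = 4.66e-10). Of 19 glial genes 8 rose and 3 fell. The most abundant, the glutamine synthetase GLUL (ENSDARG00000099776), was at 450.0, 420.3 and 345 CPM at 22 hpf and 203, 226 and 228 CPM at 30 hpf (log2 change -0.89 ± 0.09 SE, adjusted p = 1.13e-06), lower in every 30 hpf library, and its other copy GLUL (ENSDARG00000100003) fell by less (-0.22) and did not pass without clutch 9 (adjusted p = 0.0565). The share of the list was 0.127 ± 0.005% of a library at 22 hpf and 0.113 ± 0.003% at 30 hpf, without overlap. The glutamate transporters SLC1A3 (ENSDARG00000043148) (3.16, from a mean of 0.657 to 5.92 CPM) and SLC1A2 (ENSDARG00000102453) (2.06) rose. The far more abundant copy SLC1A3 (ENSDARG00000104431), at means of 131 and 169 CPM, rose by 0.37 only. The myelin gene mpz fell (-1.17), and the oligodendrocyte progenitor genes gpr17 (1.21) and cspg4 (1.66) rose. The myelin gene mbpa had 0 counts in all 6 libraries.

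Factors of the regions of the brain moved in both directions, and the difference between the regions was not tested. Forebrain and hypothalamus factors rose in 11 of 23 cases and fell in 3: LHX6 (ENSDARG00000006896) (3.95), LHX8 (ENSDARG00000002330) (3.47) and both copies of OTP (ENSDARG00000014201 at 3.70 and ENSDARG00000058379 at 2.41), the last a factor of neuroendocrine cells, rose, and the early forebrain and eye factor SIX3 (ENSDARG00000054879) fell (-0.74). With clutch as a block 1 forebrain gene fell, in place of 3. Of the 21 forebrain genes that passed the filter on low counts at each stage, 9 rose and 3 fell. Midbrain, isthmus and hindbrain factors fell in 13 of 20 cases and rose in 5, the last close to the share of all genes that rose. The hindbrain segment gene EGR2 (ENSDARG00000042826), also called krox20, was at 9.47, 11.2 and 12.4 CPM at 22 hpf and 2.00, 1.35 and 1.61 CPM at 30 hpf (log2 change -2.73 ± 0.22 SE, adjusted p = 2.45e-08). The midbrain boundary gene her5 (-2.02), irx7 (-1.47), and pax5 (-0.89) fell, and en1b (0.80) and meis2b (0.36) rose. The number of lower genes was 8 rather than 13 without clutch 13 at 22 hpf, and the number of higher ones was 3 rather than 5 without clutch 11 at 22 hpf or clutch 9 at 30 hpf.

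**Figure D2:**
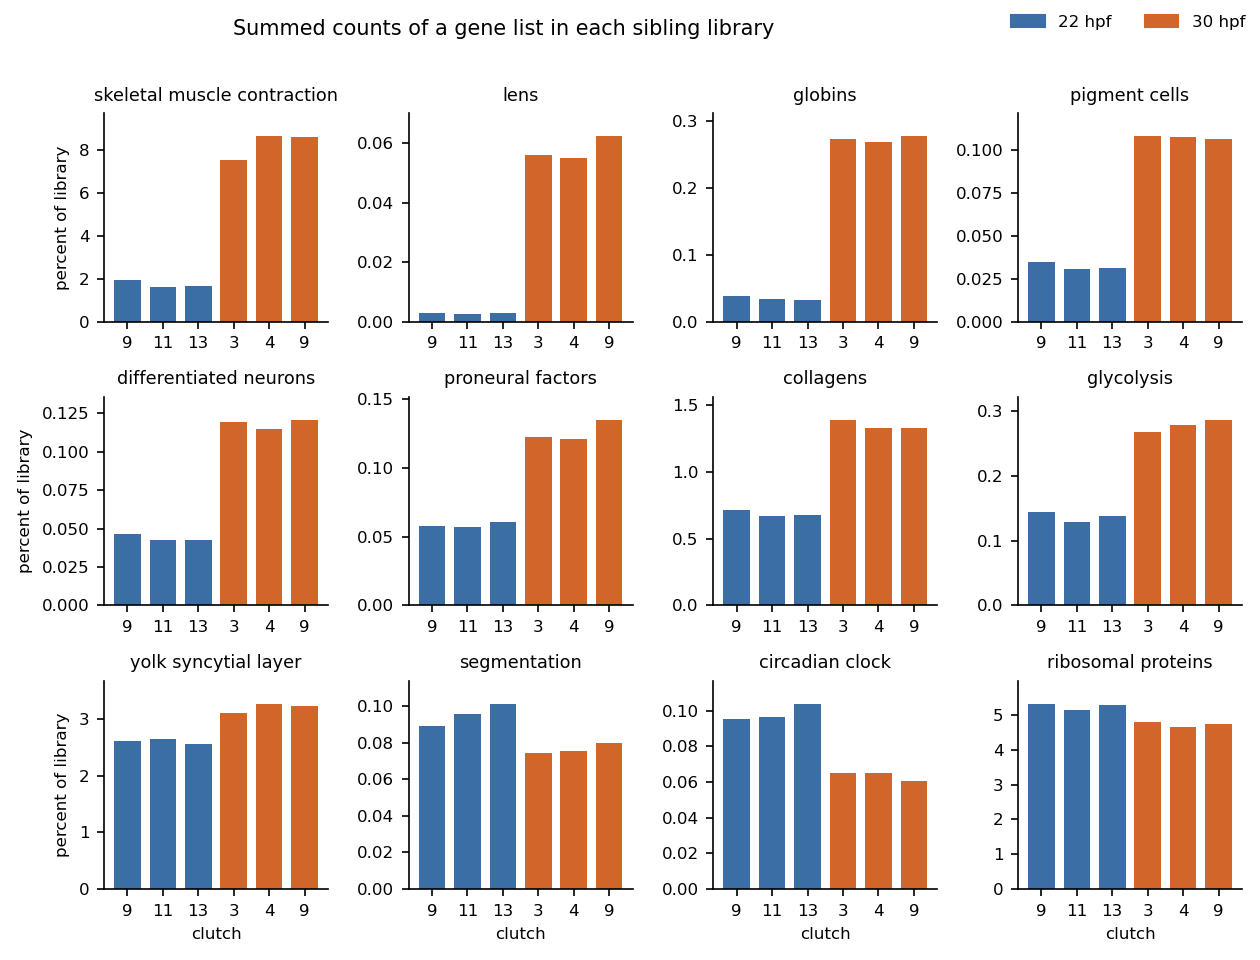
Summed counts of 12 gene lists as a percentage of the library total, without TMM scaling (vertical axis, from 0), in each sibling library, labelled by clutch, blue at 22 hpf and orange at 30 hpf. Muscle rises from 1.74 to 8.25% on average, the lens from 0.0028 to 0.0578% and the globins from 0.0351 to 0.273%, and the segmentation, clock and ribosomal lists fall, in every library of a stage.

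In the lens list 33 of 37 tested members were higher and none lower, with a median of 6.01. The filter on low counts kept 24 of the 37 through the 30 hpf libraries alone, 10 of them with 0 counts in all 22 hpf siblings, and these could only rise. Of the 11 that passed it at each stage 9 rose, with a median of 5.13. The share of the list in a library rose from 0.0028 ± 0.0002% to 0.0578 ± 0.0039%. Crystallins are the proteins that make the lens transparent. The beta crystallin crybb1l1 was at 1.83, 1.79 and 1.39 CPM at 22 hpf and 103, 107 and 113 CPM at 30 hpf (log2 change 6.01 ± 0.20 SE, adjusted p = 5.27e-11), and cryba1b at 0.611, 0.249 and 0.462 CPM at 22 hpf and 54.2, 51.3 and 58.7 CPM at 30 hpf (log2 change 6.94 ± 0.37 SE, adjusted p = 4.38e-08). The water channel MIP (ENSDARG00000037285), of lens fibres, was at 1.12, 0.796 and 1.64 CPM at 22 hpf and 42.8, 45.8 and 51.4 CPM at 30 hpf (log2 change 5.29 ± 0.22 SE, adjusted p = 2.59e-11). The 22 hpf libraries held few or no reads of these genes and the 30 hpf libraries many times more, so the folds rest on small counts at 22 hpf. The gamma crystallin crygm2d1 had 0 counts in all 22 hpf libraries; it was at 0, 0 and 0 CPM at 22 hpf and 1.2, 2.36 and 2.42 CPM at 30 hpf, and its near-identical copies may share its reads. The early lens factor foxe3 did not pass (-0.37). In the retina list 5 of 19 members rose, close to the 22.4% of all genes, and 1 fell, and the share of the list overlapped between the stages; the highest rise was that of rlbp1b (2.76), of the visual cycle.

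In the ear, genes of the otoliths and of the membranes around them moved in both directions. The otolith genes oc90 (-1.03 ± 0.09), otop1 (-0.84 ± 0.21) and stm (-0.84 ± 0.23) fell, and otomp (0.93 ± 0.13) and tecta (1.60 ± 0.24) rose. The hair cell factor atoh1b was at 1.48, 1.09 and 2.31 CPM at 22 hpf and 8.85, 7.37 and 10.23 CPM at 30 hpf (log2 change 2.44 ± 0.24 SE, adjusted p = 3.01e-07). Its 30 hpf libraries all lay above its 22 hpf libraries. In the pituitary list 16 of 23 genes had too few counts to test. Prolactin prl was at 0.153, 0.0498 and 0.103 CPM at 22 hpf and 1.33, 1.2 and 1.61 CPM at 30 hpf (log2 change 3.69 ± 0.59 SE, adjusted p = 6.45e-05) and the appetite peptide agrp changed by 1.95. The filter on low counts kept 4 of the 7 tested genes, prl and agrp among them, through the 30 hpf libraries alone, so these could only rise. Of the 2 that passed it at each stage 0 rose.

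Pigment genes rose in 24 of 28 cases (median 2.73) while the list of early neural crest genes was even, with 7 of 18 higher and 7 lower. The filter on low counts kept 3 of the 28 pigment genes through the 30 hpf libraries alone, so these could only rise. Of the 25 that passed it at each stage, 22 rose and 1 fell, again with a median of 2.73. The endothelin receptor ednrab, of the early crest, was at 35.3, 33.3 and 33.4 CPM at 22 hpf and 5.96, 5.66 and 7.30 CPM at 30 hpf (log2 change -2.43 ± 0.11 SE, adjusted p = 2.56e-11). The crest factors foxd3 (-1.36), snai1b (-0.90), snai2 (-0.51) and sox10 (-0.37) fell, and without clutch 9 sox10 did not pass (adjusted p = 0.0721). Melanin synthesis rose, with tyrosinase tyr at 10.7, 6.17 and 6.26 CPM at 22 hpf and 53.6, 55.6 and 50.5 CPM at 30 hpf (log2 change 2.78 ± 0.16 SE, adjusted p = 2.70e-09) and TYRP1 (ENSDARG00000056151) at 3.97, 2.79 and 1.49 CPM at 22 hpf and 105, 110.1 and 106 CPM at 30 hpf (log2 change 5.28 ± 0.26 SE, adjusted p = 5.55e-08). For both genes the stages were separate. The gene of the melanophore factor MITF rose in both copies (ENSDARG00000003732 at 1.41 and ENSDARG00000037833 at 1.45). The pigment enzymes gch2 (3.93) and aox5 (2.73), of yellow pigment cells, and the receptor ltk (1.91), of iridescent ones, rose as well. The single fall was tfec (-0.92), known from early crest and iridophore precursors. The crest genes of the head skeleton twist1b (1.2) and PRRX1 (ENSDARG00000042027) (1.54) rose, and twist1a, more abundant than twist1b, fell (-0.33).

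Skin keratins moved in both directions. Of 26 epidermal genes 8 rose and 9 fell, and the list's share of a library was 2.00 ± 0.04% at 22 hpf and 2.1 ± 0.09% at 30 hpf. The keratin gene krt92 was at 709, 706 and 789.5 CPM at 22 hpf and 181, 202 and 195 CPM at 30 hpf (log2 change -1.93 ± 0.11 SE, adjusted p = 8.11e-08), and krt5 at 2689, 2361 and 2258 CPM at 22 hpf and 1274, 1045 and 1089 CPM at 30 hpf (log2 change -1.10 ± 0.10 SE, adjusted p = 1.10e-05). In the other direction krt91 was at 15.12, 20.9 and 15.09 CPM at 22 hpf and 195, 189.9 and 127 CPM at 30 hpf (log2 change 3.32 ± 0.22 SE, adjusted p = 1.05e-06). None of the 3 genes overlapped between the stages. The keratin krt17 (-1.85) fell, krt15 (2.28) rose, krt4, the most abundant of them, changed by 0.44, and the basal cell factor tp63 by -0.54. Ionocyte genes rose in 7 of 14 cases, with the carbonic anhydrases ca15a (3.40) and ca2 (1.83) and the calcium channel trpv6 (1.51). The 2 that fell were foxi3a (-0.67) and ATP6V1A (ENSDARG00000076318) (-0.38). The anion exchanger SLC4A1 (ENSDARG00000012881) (3.58) counts here and in the red cell list. Its mean CPM at 22 and 30 hpf was 16.5 and 198 in siblings, and 0.207 and 0.396 in mon, which make no red blood cells. The hatching enzymes he1.1 (0.78) and he1.2 (0.88) rose.

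The actinodins and1 and and2, proteins of the fibres that stiffen the fin fold, rose from low levels. The level of and1 was 1.63, 1.14 and 2.00 CPM at 22 hpf and 74.9, 88.7 and 71.1 CPM at 30 hpf (log2 change 5.62 ± 0.18 SE, adjusted p = 3.60e-13), and that of and2 was 0.458, 0.348 and 0.205 CPM at 22 hpf and 29.4, 32.1 and 20.9 CPM at 30 hpf (log2 change 6.32 ± 0.30 SE, adjusted p = 2.71e-11), with a change of 5.47 under a clutch block. Neither gene overlapped between stages. The fin list as a whole was divided, with 9 of 26 higher and 6 lower, against 22.4% and 20.7% of all genes. The filter on low counts kept 2 of the 26 through the 30 hpf libraries alone, so these could only rise. Of the 23 that passed it at each stage, 7 rose and 6 fell. The Fraser complex genes FREM2 (ENSDARG00000102626 at 1.09 and ENSDARG00000076856 at 1.09), which anchor the fold's epidermis, rose.

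**Figure D3:**
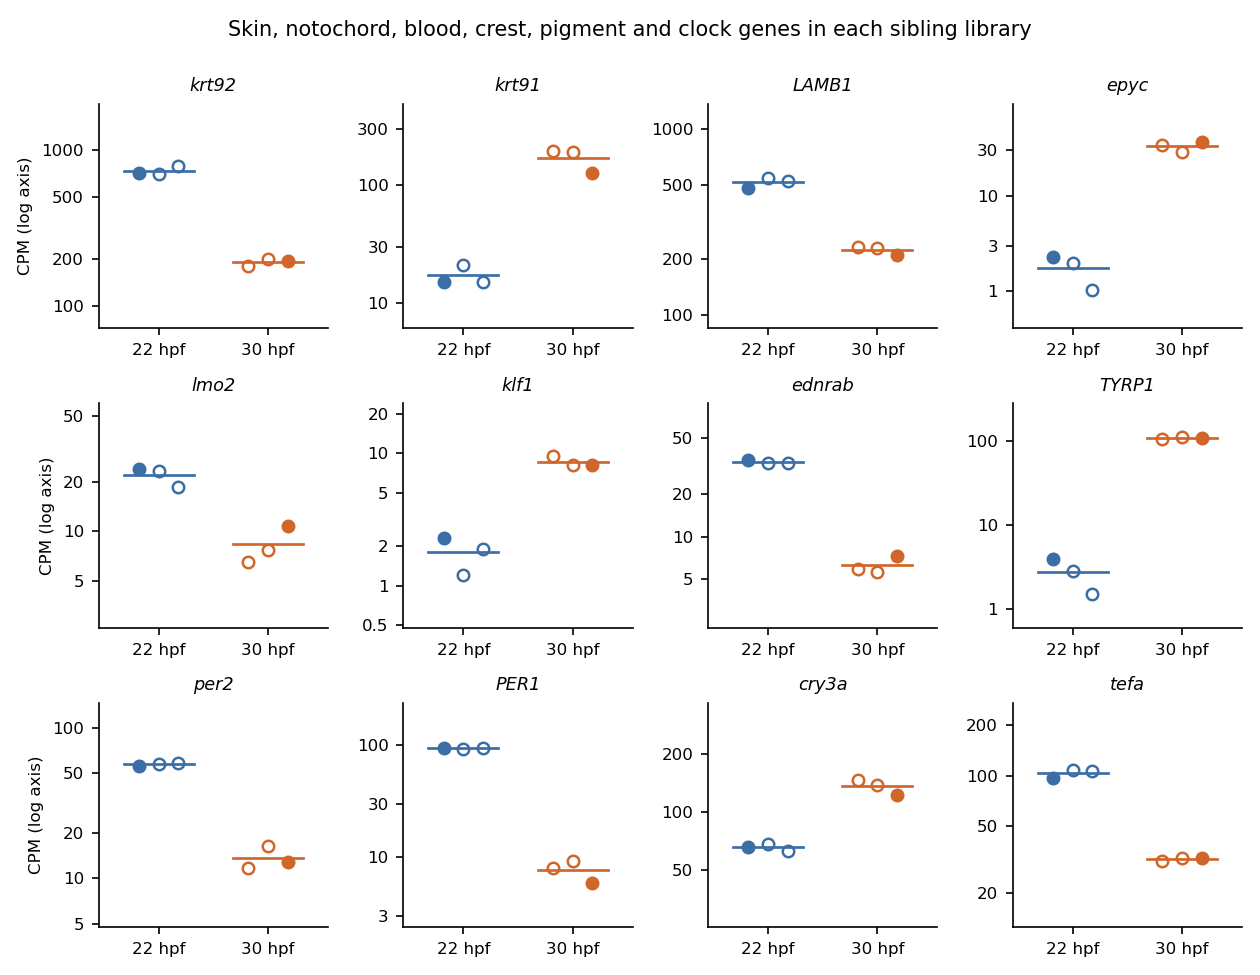
CPM on a log axis in each sibling library for 12 genes of skin, notochord, blood, crest, pigment and the clock, drawn as in the plot of the muscle genes. For each gene the 3 libraries of 22 hpf and the 3 of 30 hpf are separate; krt92 and krt91, LAMB1 (ENSDARG00000101209) and epyc, and lmo2 and klf1 move in opposite directions.

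Notochord genes moved in both directions, with 14 of 27 higher and 10 lower. The laminin gene LAMB1 (ENSDARG00000101209), of the early sheath, was at 486, 549 and 526 CPM at 22 hpf and 232, 229 and 212 CPM at 30 hpf (log2 change -1.21 ± 0.06 SE, adjusted p = 3.17e-11), and lama1 (-1.37), noto (-2.68) and tbxta (-0.51) fell. The proteoglycan gene epyc was at 2.29, 1.99 and 1.03 CPM at 22 hpf and 34.4, 28.8 and 36.7 CPM at 30 hpf (log2 change 4.23 ± 0.21 SE, adjusted p = 2.26e-10), and the matrilin matn4 at 52.1, 46.7 and 41.9 CPM at 22 hpf and 339, 315 and 332 CPM at 30 hpf (log2 change 2.81 ± 0.08 SE, adjusted p = 2.04e-13). These genes were separate between stages in all libraries. Collagens rose in 35 of 52 cases, from 0.688 ± 0.025% to 1.35 ± 0.03% of a library. The filter on low counts kept 2 of the 52 through the 30 hpf libraries alone, so these could only rise. Of the 50 that passed it at each stage, 33 rose and 7 fell. The chains of type I rose most in reads, with col1a2 at 402, 332 and 343 CPM at 22 hpf and 1697, 1639.8 and 1611 CPM at 30 hpf (log2 change 2.2 ± 0.07 SE, adjusted p = 5.15e-13), COL1A1 (ENSDARG00000035809) at 2.84 and col1a1a at 2.52, and the type VI chains col6a1 (3.23), col6a2 (2.85) and col6a3 (3.09) rose with them. The sheath collagen col8a1a fell (-0.89). Of 18 tested cartilage and bone genes 9 rose and 4 fell, and of the 16 that passed the filter on low counts at each stage 8 rose and 4 fell. Those that rose included snorc (2.47) and barx1 (3.41), the last a factor of the pharyngeal arches. Those that fell included HAPLN1 (ENSDARG00000068516) (-1.69), which had the smallest p of the list, and sp7 (-1.31).

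In the kidney list 10 of 31 genes rose, against 22.4% of all genes, and 8 fell, against 20.7%. The uptake receptor cubn of the proximal tubule rose (2.64 ± 0.14), with the chloride channel clcnk (1.78 ± 0.32) and the cadherin cdh17 (0.43 ± 0.09); the salt transporters slc12a1 (-1.04 ± 0.13) and slc12a3 (-0.74 ± 0.13) fell. Gut, liver and pancreas genes rose in 11 of 25 cases and fell in 4. Of the 22 that passed the filter on low counts at each stage, 9 rose and 4 fell. The fibrinogen chains, made by the liver and in the yolk layer, rose, with fgg at 27.1, 22.2 and 32.6 CPM at 22 hpf and 85.6, 107 and 92.7 CPM at 30 hpf (log2 change 1.8 ± 0.13 SE, adjusted p = 8.67e-08) and fgb at 1.68. Insulin ins (2.37) and the acinar factor ptf1a (2.25) rose, and pdx1, the pancreatic factor, fell (-1.58). The yolk syncytial layer list, of the cell layer that hands yolk lipids to the embryo, rose in 10 of 20 cases, with apoea at 27.5, 15.8 and 22.4 CPM at 22 hpf and 128, 81.7 and 103 CPM at 30 hpf (log2 change 2.25 ± 0.26 SE, adjusted p = 8.61e-05) and the abundant apobb.1 at 16205, 16720.0 and 15938 CPM at 22 hpf and 20448, 21140.0 and 20568 CPM at 30 hpf (log2 change 0.35 ± 0.03 SE, adjusted p = 7.56e-08). Both were higher in every library at 30 hpf, and mttp, the lipid loader of these particles, fell (-0.75).

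Circadian clock genes fell in 17 of 34 cases, against 20.7% of all genes, with 5 higher, against 22.4%, and a median of -0.48. The light-induced repressor per2 was at 56.3, 57.6 and 58.7 CPM at 22 hpf and 11.8, 16.5 and 12.8 CPM at 30 hpf (log2 change -2.07 ± 0.13 SE, adjusted p = 1.98e-09). The period gene PER1 (ENSDARG00000012499) was at 94.2, 91.2 and 93.7 CPM at 22 hpf and 8.01, 9.17 and 5.94 CPM at 30 hpf (log2 change -3.59 ± 0.32 SE, adjusted p = 1.96e-05), and its change was -4.33 with clutch as a block. Neither overlapped between the stages. The repressors per3 (-1.88) and CRY1 (ENSDARG00000045768) (-2.03), the photolyase relative cry5 (-1.84) and the output factor tefa (-1.70) fell, and cry3a (1.05 ± 0.09) and the repressor nfil3-5 (1.09 ± 0.13) rose. The other copy of PER1 (ENSDARG00000056885, 0.17) did not pass. The labels do not give the hour of collection or the light schedule, so stage and time of day cannot be told apart. The number of higher clock genes was 2 rather than 5 without clutch 9 at 22 hpf, and 3 without any single 30 hpf library.

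Proliferation genes had a median change near 0. Of 40 replication and mitosis genes 13 fell and 4 rose, with a median of -0.12. The licensing factor cdt1 fell (-0.58 ± 0.07), with mcm3 (-0.47 ± 0.06) and lig1 (-0.47 ± 0.07), and mki67 rose (0.33 ± 0.07). In 79 genes of cytosolic ribosomal proteins the median was -0.07, 12 fell and 1 rose; the number lower was 33 with clutch as a block, 2 without clutch 9, and 6 or 7 without the clutch 9 library at 22 or at 30 hpf. The ribosomal list held 5.24 ± 0.10% of the unscaled counts of a library at 22 hpf and 4.73 ± 0.08% at 30 hpf. The TMM factors of the sibling libraries were 1.02 to 1.04 at 22 hpf and 0.967 to 0.975 at 30 hpf. Part of the fall in share is therefore absent from the TMM-scaled changes. The elongation factors eef1a1l1 (10595, 10156 and 10610.0 CPM at 22 hpf and 9523, 8807 and 9109.7 CPM at 30 hpf (log2 change -0.19 ± 0.04 SE, adjusted p = 4.15e-04)) and eef2b (6802, 6646 and 6829 CPM at 22 hpf and 5745, 5560.3 and 5522 CPM at 30 hpf (log2 change -0.27 ± 0.03 SE, adjusted p = 4.10e-06)) were among the 5 genes that lost the most CPM. So were the cold-inducible RNA-binding proteins cirbpa (-0.60 ± 0.04) and cirbpb (-1.21 ± 0.05). None of these overlapped between stages. Primordial germ cell genes were counted in few reads, and ddx4, also called vasa, was the single member that passed (-0.90 ± 0.31), but not in a fit of the 6 sibling libraries alone (adjusted p = 0.0568), nor without either clutch 9 library or clutch 3. Of 21 motile cilia genes 4 were lower, close to the 20.7% of all genes, among them FOXJ1 (ENSDARG00000101919) (-0.75 ± 0.11), and 2 without clutch 9.

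Stress and damage genes showed no shared direction, with 4 of 22 higher and 5 lower, close to the 22.4% and 20.7% of all genes. The small heat shock gene hspb1 (-1.12 ± 0.07) and the cell death gene BAX (ENSDARG00000020623) (-0.55 ± 0.09) fell. The targeted gene of the mutant line, trim33, did not pass in these siblings (-0.17 ± 0.08, adjusted p = 0.0934), though a fit of the 6 sibling libraries alone put it just past the threshold (adjusted p = 0.0497).

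Some of the largest changes lay outside the lists. The enzyme gene CYP11A1 (ENSDARG00000002347), the first enzyme of steroid hormone synthesis, was at 23.2, 38.1 and 36.4 CPM at 22 hpf and 0.489, 0.852 and 1.06 CPM at 30 hpf (log2 change -5.35 ± 0.43 SE, adjusted p = 3.15e-06); its change was -4.55 with clutch as a block. Urate oxidase uox was at 19.1, 21.5 and 20.8 CPM at 22 hpf and 1.29, 0.802 and 1.36 CPM at 30 hpf (log2 change -4.14 ± 0.16 SE, adjusted p = 2.94e-12). The gene olfcb1, of an olfactory receptor family, was at 17.7, 18.7 and 11.3 CPM at 22 hpf and 0.489, 0.301 and 0.554 CPM at 30 hpf (log2 change -5.12 ± 0.34 SE, adjusted p = 9.25e-09). All 3 were low in every 30 hpf library and far higher in every 22 hpf library. The gene irg1l varied within the 22 hpf group, at 21.2, 42.1 and 6.77 CPM at 22 hpf and 1.11, 1.3 and 1.16 CPM at 30 hpf (log2 change -4.29 ± 0.82 SE, adjusted p = 0.00273), with a change of -3.55 without clutch 11 at 22 hpf, and its call was lost without clutch 9 (adjusted p = 0.0812). A gene annotated as a Metazoa signal recognition particle RNA (ENSDARG00000089201) was high, among the sibling libraries, in clutches 11 and 13 only, at 0.255, 12.1 and 11.9 CPM at 22 hpf and 0.0445, 0.100 and 0.101 CPM at 30 hpf (log2 change -6.55 ± 2.05 SE, adjusted p = 0.0312); its level in clutch 9 was low at both stages, its change was -0.60 with clutch as a block, and its call was lost without any single library other than clutch 9 at 22 hpf.

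Clutch 9 was sampled at both stages and could be compared with itself. In the fit without clutch 9, 7723 of 21992 genes passed (35.1%). Of the 4266 that rose in clutches 3 and 4 against 11 and 13, 4138 (97%) were higher at 30 hpf within clutch 9, and of the 3457 that fell, 3343 (96.7%) were lower; over all 21992 genes 49.5% were higher. The median change of the risen genes was 1.03 within clutch 9 and 1.31 in the other clutches, and that of the fallen genes -0.54 and -0.63. These sizes are on different scales, log2 CPM with a prior count of 2 within clutch 9 and edgeR's estimate in the other clutches, so only the signs are compared. Of genes in the lists, 505 of 510 that rose and 211 of 214 that fell did the same in clutch 9. For example, tbx6 changed by -4.98 within clutch 9 and ckma by 3.58. The genes were picked for their call in the other clutches, and clutch 9 has 1 sibling library a stage, so its differences have no test.

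**Figure D4:**
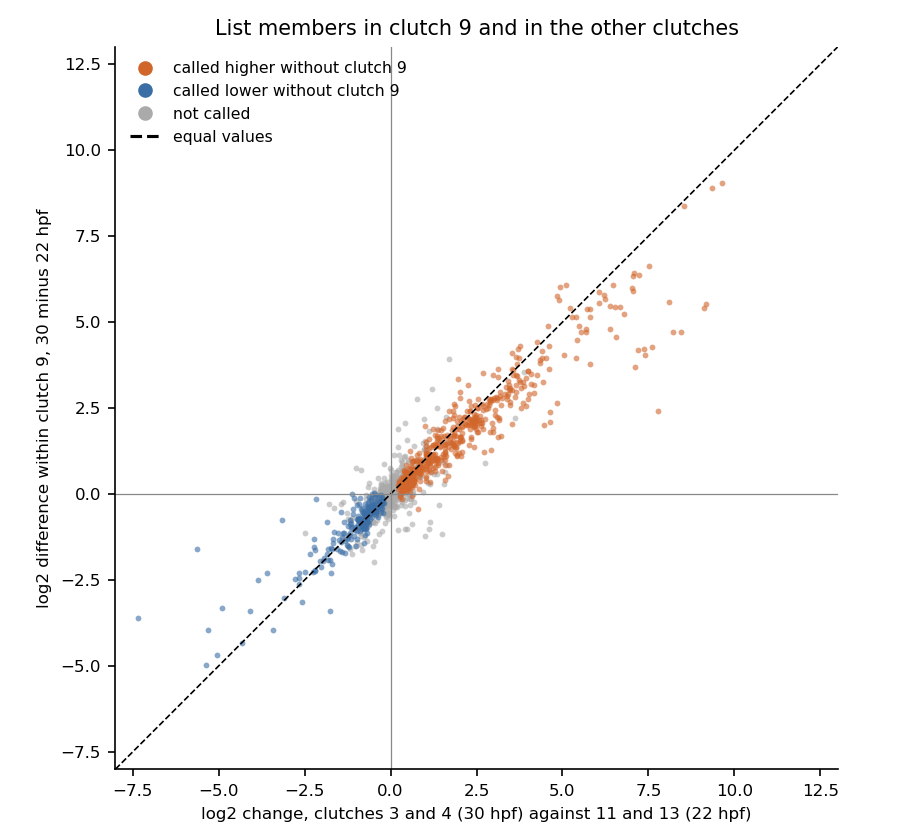
Log2 change of 1264 list genes in clutches 3 and 4 against clutches 11 and 13 (horizontal axis, edgeR) and the log2 difference within clutch 9, 30 minus 22 hpf (vertical axis); the dashed line marks equal values, and the vertical scale, with a prior count of 2, holds genes of low counts closer to 0. Orange and blue points passed the test without clutch 9, and 505 of 510 orange points lie above 0 and 211 of 214 blue points below 0.

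The stage change of siblings minus that of mon, tested as an interaction with the clutch mates of the same stages, passed for 19 genes (0.0872% of 21778), 15 (0.0689%) with a positive difference and 4 (0.0184%) with a negative one; with clutch as a block there were 105, 57 and 48, and these held all 19. Of the 19, 9 belong to the globin or erythroid lists: hbae3, for example, rose by 2.88 in siblings and changed by -1.71 in mon, a difference of 4.59 (adjusted p = 2.35e-04). Outside the blood, the receptor subunit chrng changed by -1.85 in siblings and -0.56 in mon, a difference of -1.29 (adjusted p = 0.00783). Fibronectin FN1 (ENSDARG00000006526), of the matrix of young somites, changed by -2.56 and -1.47 (difference -1.08, adjusted p = 1.67e-04), and the brain proteoglycan NCAN (ENSDARG00000005783) rose by 2.77 and 1.02 (difference 1.76, adjusted p = 2.00e-05). For tbx16l, a T-box gene of the tailbud and blood, the change was -2.28 in siblings and -5.23 in mon, with means of 21.1 CPM at 22 hpf and 0.555 CPM at 30 hpf in mon (difference 2.95, adjusted p = 9.25e-05). Without clutch 9, 9 of the 19 passed.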

How the data were processed

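The authors deposited raw counts of reads for 32520 gene IDs in 12 libraries. Per the submitters' processing notes the build was GRCz11 and the tools HTSeq, TopHat2 2.0.11, Cufflinks 2.2.1, cutadapt and FastQC, listed without their roles. Libraries were stranded, depleted of ribosomal RNA and spiked with ERCC RNA, per the labels' protocols; the table held 0 ERCC lines. Which annotation release and strand setting the counting used is not given in the sources used here; therefore antisense, overlapping and near-identical genes may share or lose reads. Symbols were matched to 29201 IDs (89.8%). A symbol in capitals belongs to an orthologue and is printed with the zebrafish ID.

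Counts were tested with edgeR 4.0.16 in R 4.3.3 (TMM, filterByExpr, robust glmQLFit, glmQLFTest) in 1 fit of 12 libraries and 4 groups, with 8 residual degrees of freedom (common BCV 0.142). Every adjusted p in the text is adjusted by Benjamini-Hochberg across the 21778 genes. CPM are counts per 1000000 of the TMM-scaled library, computed here from the deposited counts. List shares are percentages of the library total without TMM scaling, so a list that gains takes share from the others. DESeq2 1.42.0 and limma-voom (limma 3.58.1) were alternatives. On data simulated for the stage comparison in 21778 genes, 53.4% of 73 genes changed 2-fold and 84.8% of 66 changed 4-fold were called. The simulation left 21578 genes unchanged, whereas 43.1% were called in the data, so these rates need not hold for the data. No sibling library repeats another of its stage (chi-square per gene, 6.46 to 9.82). The pools of a group are of separate clutches, and p-values measure the spread between pools within the groups. The fit has no term for clutch. It therefore treats mon and sibling pools of a shared clutch, and clutch 9 at both stages, as independent.

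The 50 lists (1371 genes, 37 of them in more than 1 list, 1268 tested) and the genes named were chosen with earlier results of these data known, and lists have no test of their own. Named genes were the 10 largest changes in each direction (adjusted p under 0.05, at least 5 CPM at the higher stage, no overlap, same direction in clutch 9), the 5 largest CPM differences, of each list up to 4 members of smallest p, its most abundant member and one against its majority, the 5 smallest p of the stage difference in each direction, and a set of fixed genes (60 tested, 36 higher, 10 lower). Others were picked after their values were seen.

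The clutch given in the labels pairs mon and sibling libraries of a stage: over 10884 genes, their departures from their group's mean had correlations between 0.509 and 0.69. The stage groups share only clutch 9, whose sibling libraries correlated at 0.243.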

Additional observations from a re-analysis of the deposited data

Results flagged for a closer look

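For 19 genes the change from 22 to 30 hpf differed between siblings and mon in the tested interaction (edgeR, adjusted p under 0.05; values are the log2 stage change of siblings minus that of mon). Of 21778 genes 698 had an unadjusted p under 0.05. Genes of red cells with a higher stage change in siblings were nt5c2l1 (2.1), urod (1.14), hbae1.2 (5.71), hbae3 (4.59), cahz (3.34), HBE1 (ENSDARG00000087390) (5.23), hbbe3 (3.29) and fech (0.97), and the transferrin receptor tfr1a was lower in siblings (-0.98). For nt5c2l1, for example, siblings stood at 26.6, 27.8 and 23.8 CPM at 22 hpf and 29.0, 22.8 and 29.3 CPM at 30 hpf, with the stages overlapping, and the mon means were 28.0 CPM at 22 hpf and 6.77 CPM at 30 hpf.

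Outside the red cells, the change was higher in siblings for NCAN (ENSDARG00000005783) (1.76), tbx16l (2.95), PTPRD (ENSDARG00000104937) (0.87), atp2b2 (2.64), and3 (5.25), TNC (ENSDARG00000078362) (1.14) and ERBB4 (ENSDARG00000090408) (1.88). It was lower in siblings for FN1 (ENSDARG00000006526) (-1.08), EPX (ENSDARG00000019521) (-4.25) and chrng (-1.29). The peroxidase orthologue EPX (ENSDARG00000019521) rose by 1.86 in siblings and 6.1 in mon, with mon means of 0.180 CPM at 22 hpf and 12.7 CPM at 30 hpf.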

How the results depend on the processing

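The stage comparison of siblings kept its counts within 1.5 times under all 13 alternatives, with 7723 to 9489 genes past the threshold (9290 with clutch as a block, 7723 without clutch 9), and the median change of all genes lay between -0.0167 and 0.0082. Of 1300 list counts under an alternative 63 moved by over 1.5 times. None of the 50 list shares moved with another denominator, the counts of the tested genes outside the mitochondrial genome. Both denominators hold the muscle list, so this cannot show how far its gain lowered the shares of other lists. For the 19 genes whose stage change differed between siblings and mon, the count was 105 (57 positive, 48 negative) with clutch as a replicate block, 33 (23 and 10) with DESeq2, 13 (11 and 2) with limma-voom, 9 (8 and 1) without clutch 9 and 16 to 18 (11 to 14 and 4 to 5) without a single library; the cause was not tested. Of the genes named, 3 changed sign, all far from the threshold: runx1 turned to -0.0940 without clutch 9 and lay between -0.0932 and 0.290 without a single library, nt5c2l1 lay between -0.0090 and 0.163, and flt4 between -0.0120 and 0.142. Under the block the stage estimate rests on clutch 9, the one clutch at both stages. The folds of genes near 0 CPM at 22 hpf, such as crystallins, are limited by depth.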

Other observations

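In lists whose share moved most, the clutch 9 library was more often extreme in the direction of the stage change than against it. Of the 14 lists whose share was at least 1.5 times higher at 30 hpf, clutch 9 was the highest of 3 libraries at 22 hpf in 9 and the lowest in 1. At 30 hpf it was the highest in 8 and the lowest in 1. Of the 2 lists at least 1.5 times lower, it was the highest in 0 at either stage, and the lowest in 1 at 22 hpf and 2 at 30 hpf. Over all 50 lists the libraries of the stages did not overlap in share for 25 that were higher and 20 that were lower at 30 hpf. These shares have no TMM scaling, and a lower share need not mean that most genes fell. The share of the glial list, for example, was lower, though 8 of its genes rose and 3 fell. In TMM-scaled CPM of single genes, and without regard to the test, 26.8% of the 21778 genes were higher and 25.9% lower in all 3 libraries at 30 hpf than in any at 22 hpf.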
